A study of Homo sapiens with 6 samples.

Results

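Ribosome biogenesis factors were examined in the established line LX-2, which derives from human hepatic stellate cells, with and without overexpression of fibroblast activation protein α (FAPα, a membrane serine protease encoded by FAP). The factors were the genes that the deposited expression table annotates with the Gene Ontology term for ribosome biogenesis, without the genes for ribosomal proteins and initiation factors. The term was carried by 98 of the 60748 rows of the table, 6 of these were left out by their symbols (RPL7A, RPLP0, RPS28, MRPL10, MRPL36 and EIF6), and 92 factors remained. RNA was sequenced from 3 LX-2Vector libraries, whose cells carried the empty lentiviral vector, and from 3 LX-2FAP libraries, whose cells carried the same vector with FAPα. Both groups were kept in serum-containing DMEM and cultured for 24 h. By the name the study's methods give the vector, a ubiquitin promoter precedes the insert and EGFP and puromycin resistance follow it, and stable clones were selected with puromycin, so the 2 groups compare selected cell populations and not an acute induction. Nothing in the labels says that the 3 libraries of a group came from separate cultures, so the spread between them may be technical.

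A ribosome is built mostly in the nucleolus. RNA polymerase I transcribes one long precursor RNA, small nucleolar ribonucleoproteins (snoRNPs) guide its methylation and pseudouridylation, and a large assembly called the small-subunit processome folds and cuts it. The precursors of the small and the large subunit then part, mature with the help of GTPases, helicases and kinases, and leave for the cytoplasm, where the last factors are released. Mitochondria build their own ribosomes with a separate set of factors. Production of ribosomes is known to follow growth signals, and MYC is a known activator of many of its genes. Hepatic stellate cells, the fibroblast-like cells of the liver sinusoid, take on a growing, matrix-secreting state when activated.

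Counts ran from 17355700 to 26352060 per library. FAP rose from 1.85, 2.39 and 2.59 CPM (counts scaled to a common library size by the TMM method) in LX-2Vector to 620.1, 843 and 707 CPM in LX-2FAP, a log2 fold change of 8.33 ± 0.13 (SE; edgeR quasi-likelihood adjusted p = 4.47e-16). The summed level of 12 hepatic stellate cell markers was 2302 to 2436 CPM in LX-2Vector and 2349 to 2481 CPM in LX-2FAP, most of it VIM (means of 1545 and 1695 CPM). LRAT was at 0 in every library, and DES and COL1A2 were at or near 0. Of the 9 markers with enough counts to test, edgeR called VIM higher (log2 fold change 0.13, adjusted p = 0.0372). It called COL3A1 (-0.69, adjusted p = 0.00765), COL1A1 (-0.40, adjusted p = 0.0135) and PDGFRB (-0.38, adjusted p = 0.0269) lower, with a median of -0.13 over the 9. DESeq2 did not call COL1A1 (DESeq2 adjusted p = 0.0547). PDGFRB was not called by edgeR once the trend with GC content described below was removed (adjusted p = 0.0675). The summed levels of marker lists for hepatocytes (10.5 to 14.7 CPM), leukocytes (8.1 to 13.8 CPM), endothelial cells (7.12 to 10.6 CPM) and epithelial cells (3.63 to 7.58 CPM) were low in both groups.

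A minority of the ribosome biogenesis factors were called higher in LX-2FAP than in LX-2Vector cells, and by small amounts. The other 78 of the 92 did not pass the test. Of these 78, 72 still had a log2 fold change above 0 (median 0.08), where 47% of all tested genes did. In bulk RNA, a higher level in every cell and more cells with a high level cannot be told apart. All 92 factors had enough counts to be tested, 14 were called higher at an adjusted p under 0.05 and 0 were called lower, where an adjusted p comes from the edgeR quasi-likelihood test over all 18275 tested genes. Among all tested genes, 2.57% were called higher and 2.73% lower. The 14 genes were NOP58, SBDS, UTP15, KRR1, BRIX1, RIOK2, MPHOSPH10, GTPBP4, EBNA1BP2, WDR43, GNL2, WDR36, NOL11 and DDX3X, and their mean levels were 10.9% to 19.5% higher. A further 14 factors had an adjusted p between 0.05 and 0.1. The DESeq2 Wald test called 21 factors higher, the 14 called by edgeR among them, and 0 lower. It called higher 6.14% of the 11638 genes to which it gave an adjusted p.

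The log2 fold change was above 0 for 86 of the 92 factors, against 47% of all tested genes. It was above 0 for 74 factors when libraries were scaled by their total counts alone, a fit for which the share of all genes is not given. The median log2 fold change of the factors was 0.11, with quartiles of 0.04 and 0.15 and a range from -0.14 to 0.26. Over all tested genes the median was -0.01, with quartiles of -0.14 and 0.09. At an unadjusted p under 0.05, 44 factors were higher (against 10.5% of all genes) and 2 were lower (against 11.6%). The 3 LX-2FAP libraries lay above all 3 LX-2Vector libraries for 46 factors and below them for 0, where 13% of all tested genes lay above and 13.4% below. No factor passed a size cutoff, an increase of more than 1.2 times at an unadjusted p below 0.05 in edgeR, where 1.45% of all genes did.

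These differences were small, and the count of called factors depended on single libraries. The median coefficient of variation of the factors was 4.07% within LX-2Vector and 3.63% within LX-2FAP. The median SE of the log2 fold changes was 0.05, where their median was 0.11. Without LX-2FAP library 2 the test called 0 factors and 0.346% of all genes higher. Without LX-2FAP library 3 it called 0 factors and 0.0744% of all genes higher. At an unadjusted edgeR p under 0.05, 28 and 31 factors were higher in these fits, for which the share of all genes at that threshold is not given. Without LX-2FAP library 1 the test called 25 factors (4.75% of all genes higher). Without LX-2Vector library 1 it called 3 factors (0.94%), and without LX-2Vector library 3 it called 6 factors (1.16%). Between 79 and 84 of the 92 log2 fold changes were above 0 in these fits and in the fit without LX-2Vector library 2.

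The promoters of the factors were searched for short words recognized by factors known to act at such genes. RefSeq promoters (GRCh38.p14, from 250 bases before to 50 bases after the start) were found for 77 of the 92 factors, and the first listed was used where a gene had more than 1. The E-box CACGTG, the word that MYC and MAX bind, occurred on either strand in 21 of the 77 promoters (27.3%), against 7.43% of 27305 promoters of all genes and 9.78% of the 11653 promoters of genes tested here. The ETS word CCGGAAG occurred in 31 (40.3%), against 10.7% of all promoters and 18.3% of tested genes. The YY1 word AAGATGG occurred in 12 (15.6%, against 6.06% and 7.23%), and the NRF1 word GCGCATGC in 5 (6.49%, against 3.27% and 5.23%). The ETS word ends and the YY1 word begins with the letters AAG, which they can share. Of the 12 called factors with a promoter, 3 held the E-box, 4 the ETS word, 2 the YY1 word and 0 the NRF1 word. The factors without an entry included NOP58 and MPHOSPH10.

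The matches in the called factors are shown with 10 bases on each side, 5′ to 3′ on the strand of the gene, with the word in capitals, to show where each lies and what surrounds it in the genes whose levels are described next. Positions count from the start, with negative numbers before it.
EBNA1BP2, E-box from position -237, chr1:43172792-43172817, minus strand: tattgttggcCACGTGggatcgaaga
WDR43, E-box from position 4, chr2:28894660-28894685, plus strand: cacggacgaaCACGTGgctgcagcgg
GNL2, E-box from position 4, chr1:37595919-37595944, minus strand: acgtcgtgcaCACGTGgtccggcgtg
KRR1, ETS word from position -5, chr12:75511598-75511624, minus strand: tccggagccaCCGGAAGcagcttgcaa
BRIX1, ETS word from position -105, chr5:34915596-34915622, plus strand: gccaccgagaCCGGAAGgaggcggcac
GTPBP4, ETS word from position -57, chr10:988367-988393, plus strand: ggctgagctcCCGGAAGtgacgtacct
WDR36, ETS word from position -11, chr5:111092327-111092353, plus strand: gcagcgggcgCCGGAAGcggtgttgtg
SBDS, YY1 word from position -98, chr7:66995668-66995694, minus strand: tgggcgtggaAAGATGGcgtaaaaagc
BRIX1, YY1 word from position 26, chr5:34915726-34915752, plus strand: gcggcgaggcAAGATGGcggcaaccaa
EBNA1BP2 has 2 entries, and its E-box was searched in the first. In WDR43 and GNL2 the E-box began 4 bases into the transcript, and in KRR1 and WDR36 the ETS word lay across or just before the start. BRIX1 held both an ETS and a YY1 word. A match is a description of these letters and no measure of binding.

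**Figure D1:**
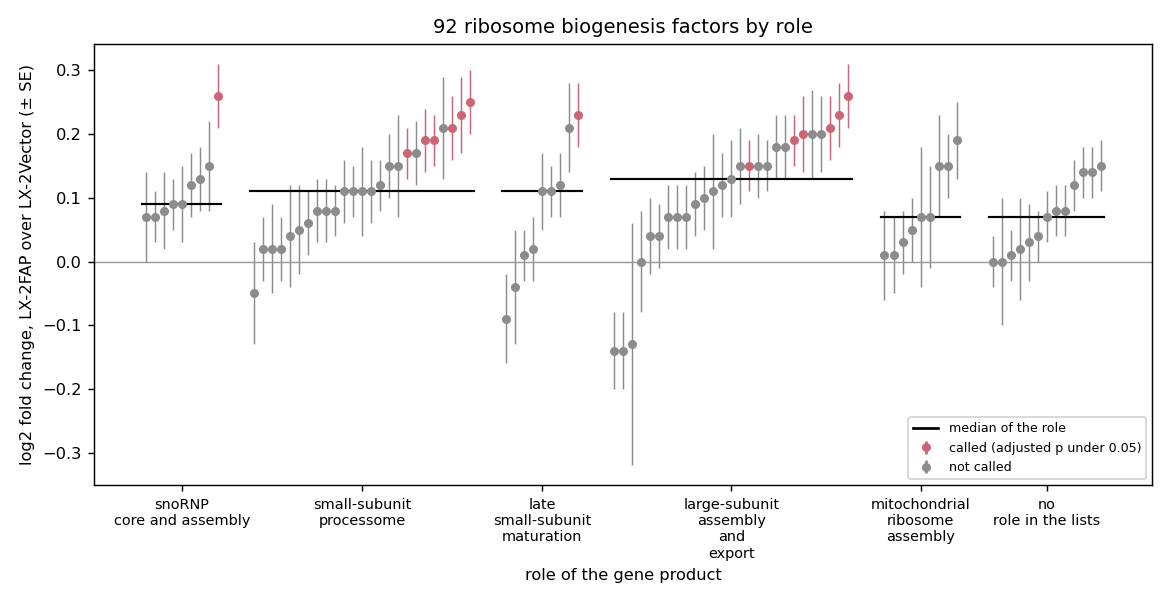
Log2 fold change of each of the 92 factors, LX-2FAP over LX-2Vector, grouped by role on the x axis; points are edgeR estimates, bars are ± SE, red points passed an adjusted p under 0.05 and black lines are role medians. The medians lie between 0.07 and 0.13, red points occur in 4 of the 6 groups, and the lowest points, at -0.14, belong to large-subunit factors.

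By the role lists, 6 of 25 factors of the small-subunit processome were called (median log2 fold change 0.11). In the list for assembly and export of the large subunit, which includes DDX3X, 6 of 27 were called (median 0.13). Of the snoRNPs 1 of 9 was called (median 0.09), as was 1 of 9 in the late maturation of the small subunit (median 0.11). None of the 9 factors of the mitochondrial ribosome was called by edgeR (median 0.07), where 2 were higher at an unadjusted p under 0.05 and DESeq2 called 1. None of the 13 factors that were in none of the role lists was called by edgeR (median 0.07), where 6 were higher at an unadjusted p under 0.05 and DESeq2 called 3. The 13 were C1QBP, CUL4A, CUL4B, DROSHA, FRG1, GLUL, GTF3A, NSA2, PWP1, RIOX2, XPO1, XRCC5 and ZNF658. Differences between roles were not tested.

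Transcript levels of the snoRNP genes ranged from 3.44 FPKM (NAF1, an assembly factor) to 89.2 FPKM. Levels are given here in FPKM, which corrects for gene length, as the mean ± SD of LX-2Vector (n = 3). NOP10, a small subunit of the pseudouridylating H/ACA snoRNPs, had the highest level of all 92 factors at 89.2 ± 6.07 FPKM, and DKC1, their pseudouridine synthase, stood at 47.6 ± 2.15 FPKM. NOP56 and NOP58, the paired core proteins of the methylating C/D snoRNPs, stood at 45.4 ± 1.48 and 26.9 ± 1.04 FPKM.

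NOP58 had the largest log2 fold change of the 92 factors. Its level was 86.8, 91.1 and 84.8 CPM in LX-2Vector and 101, 109 and 104 CPM in LX-2FAP. The groups did not overlap, and the log2 fold change was 0.26 ± 0.05 (SE; edgeR adjusted p = 0.00883). Its partner NOP56 had 229, 225 and 214 CPM in LX-2Vector and 232, 246 and 235 CPM in LX-2FAP. NOP56 did not pass the test (log2 fold change 0.09 ± 0.04, edgeR adjusted p = 0.208), although its groups did not overlap either. The difference between the changes of these 2 genes was not tested. DKC1 gave 0.12 ± 0.05 (edgeR adjusted p = 0.16) and NOP10 gave 0.09 ± 0.06 (edgeR adjusted p = 0.413), both with overlapping groups. The 9 snoRNP factors had log2 fold changes of 0.07 to 0.26, all above 0 also with scaling by total counts alone.

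The small-subunit processome held 25 factors, with log2 fold changes of -0.05 to 0.25 and 24 above 0 (21 with scaling by total counts alone). UTP15, a subunit of the UTP-A complex that binds the precursor RNA first and is needed for its transcription, had 72.9, 67.1 and 72.8 CPM in LX-2Vector and 79.6, 87.6 and 86.5 CPM in LX-2FAP. All 3 LX-2FAP libraries lay above the highest control (log2 fold change 0.25 ± 0.05, edgeR adjusted p = 0.0161). WDR43 and NOL11 belong to the same complex and were also called. WDR43 had 113, 115 and 114 CPM in LX-2Vector and 123, 136 and 132 CPM in LX-2FAP (log2 change 0.19 ± 0.05, edgeR adjusted p = 0.0252). NOL11 had 115, 123 and 115 CPM against 129, 132 and 135 CPM (0.17 ± 0.04, edgeR adjusted p = 0.0366). The other UTP-A subunits HEATR1, WDR75 and UTP4 had log2 fold changes of 0.12, 0.11 and 0.08 and did not pass the test, so 3 of the 6 subunits were called. These 6 were grouped after their values had been seen.

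MPHOSPH10 encodes the scaffold of a processome module that also holds IMP3 and IMP4. It had 56.5, 55.2 and 55.9 CPM in LX-2Vector, a spread of 0.676 CPM (SD), and 61.2, 66.7 and 66.2 CPM in LX-2FAP (log2 change 0.21 ± 0.05, edgeR adjusted p = 0.0284). IMP3 and IMP4, named here after their values had been seen, gave 0.15 ± 0.08 and 0.05 ± 0.07 and were not called. KRR1, an RNA-binding processome protein, had 67, 78.1 and 76.7 CPM in LX-2Vector and 84.9, 89 and 85.3 CPM in LX-2FAP (0.23 ± 0.06, edgeR adjusted p = 0.0314), with the lowest control library well under the other two. WDR36, a processome protein with WD repeats, had 198, 209 and 208 CPM against 225, 235 and 242 CPM (0.19 ± 0.04, edgeR adjusted p = 0.0199). RRP36 had the highest level of the processome factors at 33 ± 0.878 FPKM and did not pass the test (0.11 ± 0.05, edgeR adjusted p = 0.172). NOC4L, at 21.2, 18.7 and 17.6 CPM in LX-2Vector and 18.4, 18.7 and 18.8 CPM in LX-2FAP, had the lowest value of the processome factors (-0.05 ± 0.08, edgeR adjusted p = 0.783), and its value was 0.08 once the trend with GC content described below was removed.

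**Figure D2:**
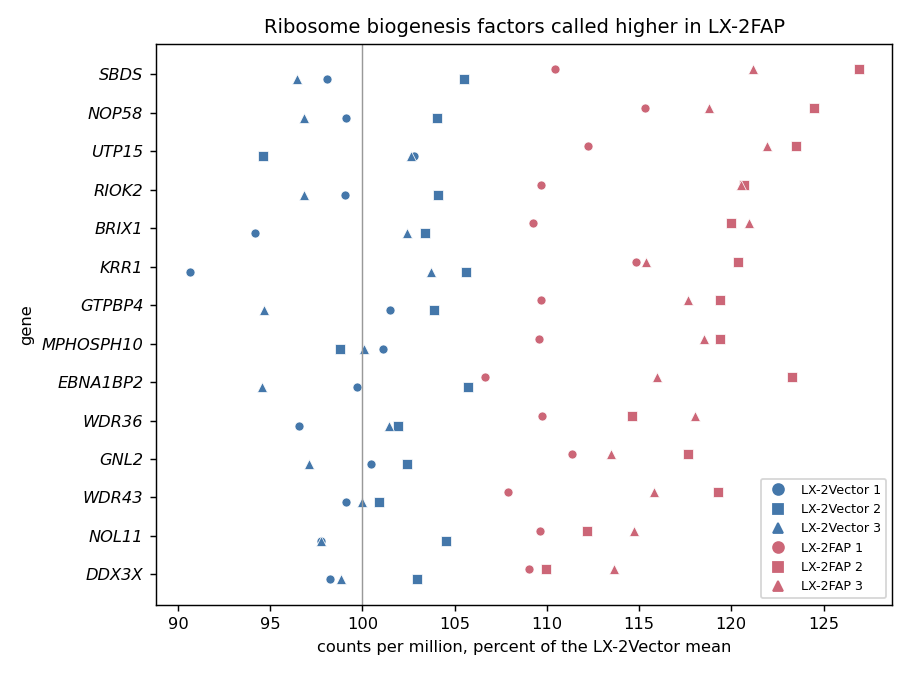
Level of the 14 called factors in each library, in CPM as a percent of the gene's LX-2Vector mean (x axis), with LX-2Vector libraries in blue, LX-2FAP libraries in red and the 3 replicates as circles, squares and triangles. All red points lie to the right of all blue points of the same gene, and the mean of the red points is 10.9% to 19.5% above 100.

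The list for late maturation of the small subunit, which includes ISG20L2 and PRKDC, held 1 call among 9 factors. RIOK2, an atypical kinase that rides on the small-subunit precursor to the cytoplasm, had 58.5, 61.5 and 57.2 CPM in LX-2Vector and 64.8, 71.3 and 71.2 CPM in LX-2FAP (log2 change 0.23 ± 0.05, edgeR adjusted p = 0.0252). Its relatives RIOK1 and RIOK3, named after their values had been seen, gave 0.21 ± 0.07 and 0.12 ± 0.05 and were not called (edgeR adjusted p = 0.0785 and 0.204). PRKDC, the DNA-dependent protein kinase, had the highest level of the 9 at 58.4 ± 2.38 FPKM and a log2 fold change of 0.01 ± 0.04, which fell below 0 in 6 of 16 alternative fits. TSR3, which modifies a base of the small-subunit RNA, had 29.1, 29.1 and 26.8 CPM against 28, 25.3 and 26.6 CPM (-0.09 ± 0.07, edgeR adjusted p = 0.471), and 0.06 with the GC trend removed.

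The list of large-subunit factors held the other 6 calls. SBDS, the gene of Shwachman-Diamond syndrome, acts with the GTPase EFL1 at the last cytoplasmic step. SBDS stood at 71.3 ± 3.71 FPKM in LX-2Vector, the third highest level of the 92 factors. It had 119, 128 and 117 CPM in LX-2Vector and 134, 154 and 147 CPM in LX-2FAP, without overlap (log2 fold change 0.26 ± 0.05, edgeR adjusted p = 0.0155). Of the 75-base words in its transcripts, 3.71% are shared with another gene, chiefly the pseudogene SBDSP1. EFL1, named after its values had been seen, had 75.9, 78 and 78.2 CPM against 82.9, 75.6 and 79.7 CPM with overlapping groups (0.04 ± 0.05, edgeR adjusted p = 0.679).

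BRIX1, GTPBP4, EBNA1BP2 and GNL2 act earlier, on the nucleolar precursor of the large subunit. BRIX1, which helps to fold the large-subunit RNA, had 96.5, 106 and 105 CPM in LX-2Vector and 112, 123 and 124 CPM in LX-2FAP (log2 change 0.23 ± 0.05, edgeR adjusted p = 0.0215). GTPBP4, a nucleolar GTPase, had 81.6, 83.5 and 76.1 CPM against 88.2, 96 and 94.6 CPM (0.21 ± 0.05, edgeR adjusted p = 0.0289). Of the exon bases of GTPBP4, 19.1% lie opposite exons of other genes on the other strand, as do 18.8% of those of EBNA1BP2, and whether counting used the strand is not given in the sources used here.

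GNL2, the GTPase that checks the precursor before export, had 96.5, 98.4 and 93.3 CPM in LX-2Vector and 107, 113 and 109 CPM in LX-2FAP (0.19 ± 0.04, edgeR adjusted p = 0.0221). EBNA1BP2, an early assembly factor, had 85.7, 90.9 and 81.3 CPM against 91.7, 106 and 99.7 CPM (0.20 ± 0.06, edgeR adjusted p = 0.0476), where the lowest LX-2FAP library exceeded the highest control by less than 1 SD of either group. DDX3X, a helicase with roles in translation, carries the term and is grouped here only because the role list places it with the large subunit. It was the most abundant of the called genes in CPM. It had 663, 695 and 667 CPM in LX-2Vector and 736, 742 and 767 CPM in LX-2FAP (0.15 ± 0.04, edgeR adjusted p = 0.0317), the smallest change among the calls.

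The 3 lowest log2 fold changes were also those of large-subunit factors, and none of these was called. DDX51, a helicase, had 38.9, 33.8 and 37.1 CPM in LX-2Vector and 35.1, 32.1 and 32.7 CPM in LX-2FAP (log2 change -0.14 ± 0.06, edgeR adjusted p = 0.221). NOP53, which docks the RNA exosome on the precursor, had 49.6, 46.6 and 54.6 CPM against 46.9, 46.5 and 44 CPM (-0.14 ± 0.06, edgeR adjusted p = 0.2). NOP2, an RNA methyltransferase, was the least abundant of the 92 factors at 1.93, 2.45 and 1.65 CPM against 1.71, 1.95 and 1.81 CPM (-0.13 ± 0.19, edgeR adjusted p = 0.754). Its count is uncertain, since 54.4% of its exon bases are shared on the same strand with another annotated gene, which had 0 counts in every library. The count of ZNF658, which had no role in the lists, is likewise uncertain, with 48.1% of its 75-base words shared with ZNF658B.

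Factors of the mitochondrial ribosome were at log2 fold changes of 0.01 to 0.19, of which 7 of 9 were above 0 with scaling by total counts alone. ERAL1, which binds the small mitochondrial ribosomal RNA, had the highest level at 35.9 ± 2.17 FPKM and gave 0.05 ± 0.05 (edgeR adjusted p = 0.612). DHX30, a mitochondrial helicase, stood at 14 ± 0.769 FPKM and gave 0.03 ± 0.05 (edgeR adjusted p = 0.78), and -0.01 without LX-2Vector library 3.

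**Figure D3:**
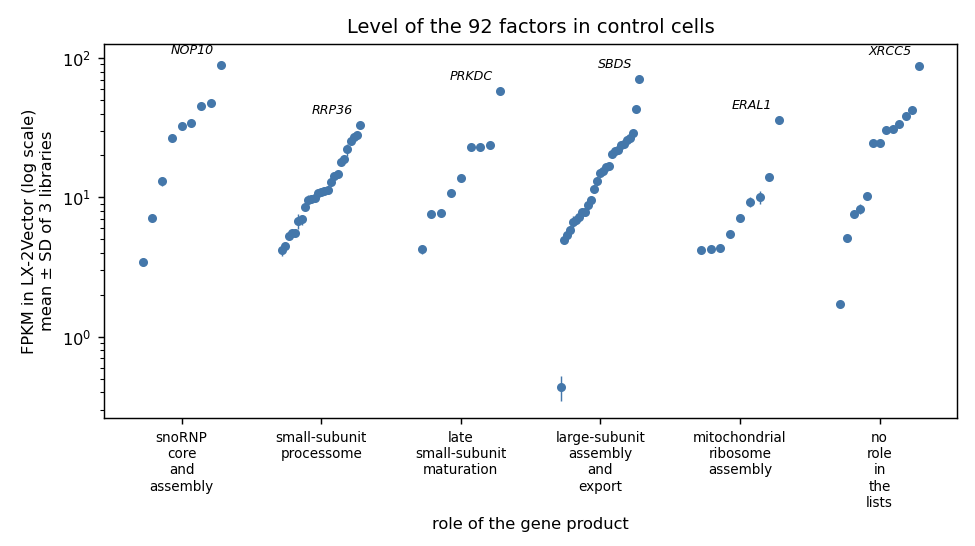
Level of each of the 92 factors in LX-2Vector cells, in FPKM on a log axis, as the mean of 3 libraries with bars of ± SD, grouped by role on the x axis; the highest factor of each role is named. Levels run from 0.432 FPKM (NOP2) to 89.2 FPKM (NOP10).

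In level the factors stood above most genes. Their median was 13 FPKM in LX-2Vector, against 3.38 FPKM for all tested genes, and 90 of the 92 lay above the latter. By annotation, 79.3% of the factors carry the term for the nucleolus, against 4.81% of all annotated rows, and 75% carry RNA binding, against 8.69%.

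Relative to the mean of LX-2Vector, the median log2 difference of the 92 factors was 0.01, 0.02 and -0.03 in LX-2Vector libraries 1 to 3 and 0.07, 0.14 and 0.10 in LX-2FAP libraries 1 to 3, while the median of all tested genes stayed between -0.01 and 0.00. The factors took 0.918%, 0.941% and 0.923% of all counts in LX-2Vector and 0.961%, 0.983% and 0.98% in LX-2FAP. LX-2FAP library 2 held the highest value of the 6 libraries for 45 factors, and LX-2Vector library 3 held the lowest for 47. LX-2FAP library 1, with the smallest shift, also had the least FAP of the 3 overexpressing libraries (620.1 CPM), and library 2, with the greatest, had the most (843 CPM). With 3 libraries this order was not tested.

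**Figure D4:**
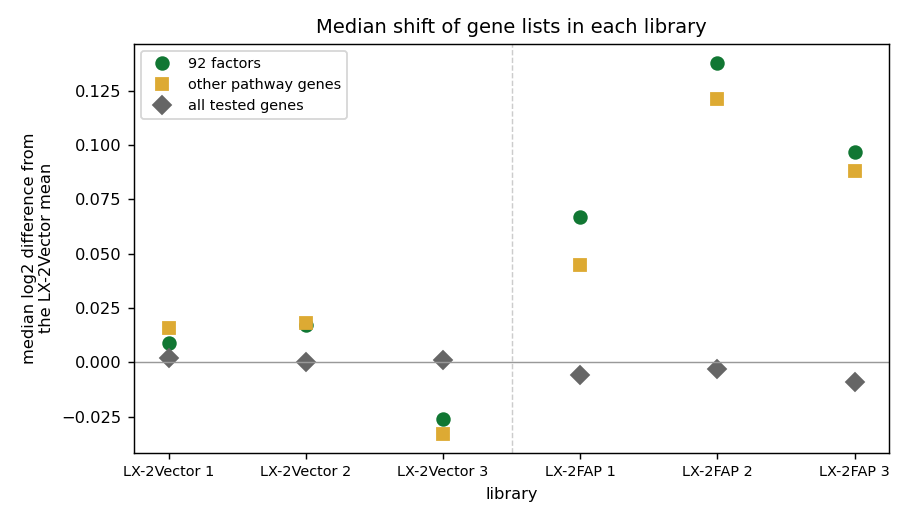
Median log2 difference from the LX-2Vector mean in each of the 6 libraries, for the 92 factors (circles), the other pathway genes (squares) and all tested genes (diamonds); the x axis lists the libraries and the dashed line parts the groups. The factors are at 0.07, 0.14 and 0.10 in the LX-2FAP libraries and the other pathway genes at 0.04, 0.12 and 0.09, while all tested genes stay within 0.01 of 0.

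Genes of the pathway that do not carry the term in this table were compared as well. A list of ribosome assembly, RNA exosome and RNA polymerase I genes held 179 genes without the term, of which 176 were tested, 19 were called higher and 0 lower by edgeR (55 and 2 at an unadjusted p under 0.05, 24 and 0 called by DESeq2), with a median log2 fold change of 0.08. Of these, 10 belong to the large subunit. They include NPM1, the major chaperone of the nucleolus, which had 949, 949 and 941 CPM in LX-2Vector and 1068, 1084 and 1091 CPM in LX-2FAP (log2 change 0.19 ± 0.03, edgeR adjusted p = 0.00821). DDX21, a nucleolar helicase, had 256, 262 and 254 CPM against 290.5, 311 and 307 CPM (0.24 ± 0.04, edgeR adjusted p = 0.00765). In both genes the groups lay far apart relative to their spread. The remaining large-subunit genes were LYAR (log2 fold change 0.27), DDX18 (0.21), NIFK (0.20), NOC3L (0.19), CEBPZ (0.18), RSL1D1 (0.17), GNL3 (0.16) and NOL8 (0.16).

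The processome genes WDR3 (0.24), ESF1 (0.24), UTP20 (0.21) and DNTTIP2 (0.19) were called, as were PNO1 (0.26), a late small-subunit factor, and RPAP3 (0.17), a co-chaperone of snoRNP assembly. In a list of 28 genes of the RNA exosome, which trims precursor ends, its cofactors and the RNase P and MRP proteins, C1D (0.30) and MTREX (0.18) were called, both of them exosome cofactors. Among 20 genes of RNA polymerase I transcription, TAF1D (0.19) was called, and the median was 0.07. None of the 19 tested mitochondrial genes of the list was called by edgeR or DESeq2 (median 0.04), and 2 were higher at an unadjusted p under 0.05 in edgeR. ZNF593, UTP14C and MRM2 had too few counts to be tested. None of the 6 genes that carry the term but were left out by symbol was called by edgeR or DESeq2 (1 at an unadjusted p under 0.05 in each), and their log2 fold changes ran from -0.07 (RPS28) to 0.09 (RPL7A and EIF6).

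The E-box that MYC binds stood in 3 of the 12 promoters of called factors and in 21 of the 77 promoters of all factors. MYC had 47.8, 47.1 and 46.2 CPM in LX-2Vector and 49.7, 45.9 and 47.6 CPM in LX-2FAP. A change was not detected (log2 fold change 0.02 ± 0.05, edgeR adjusted p = 0.849, and -0.01 with scaling by total counts alone). Of 10 tested genes of the MYC network, 0 were called higher by edgeR or DESeq2 (0 also at an unadjusted p under 0.05), and MNT and MXD3, which encode repressors that compete with MYC for its partner MAX, were called lower (-0.30 ± 0.07 for MNT and -0.37 ± 0.09 for MXD3, with edgeR adjusted p = 0.0233 and 0.0306). Both transcripts are rich in GC (61.4% and 61.3%), both calls were lost with the GC trend described below removed (edgeR adjusted p = 0.12 for each), and each was made in 1 of the 6 fits that left out a library. Of the exon bases of MXD3, 40.4% overlap exons of other genes. Of 10 proliferation genes, edgeR called CCNB1 higher (0.15) and MCM7 lower (-0.27), and the median was 0.11. At an unadjusted p under 0.05, 6 were higher and 2 lower. DESeq2 called 5 higher, BUB1, CCNA2, CCNB1, CDK1 and AURKA, and 0 lower. With the GC trend removed, edgeR called neither CCNB1 (edgeR adjusted p = 0.101) nor MCM7 (edgeR adjusted p = 0.126). The part of the MYC network and proliferation genes in the shift of the ribosome biogenesis factors was not tested.

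The called factors had transcripts of low GC content. Their median was 40.7% (range 36% to 49.2%), against 47.6% for the factors not called and 47.7% for all tested genes, and 12 of the 14 lay below the median of all factors, 45.6%. Log2 fold changes of all genes fell with GC content in these libraries, from a median of 0.08 in genes of 30% to 40% GC to -0.10 in genes of 55% to 70%. The factors fell less, from 0.15 to 0.04, and their median lay above that of all genes in each of the 5 bins. After a smooth GC trend was removed from each library, 5 factors were called, C1QBP, GNL2, GTPBP4, NOP58 and SBDS, 4 of them also called without its removal, where 1.03% of all genes were called higher. C1QBP, a mitochondrial matrix protein with no role in the lists, had 98, 98.8 and 98.8 CPM in LX-2Vector and 105, 111 and 111 CPM in LX-2FAP. The median of the factors was again 0.11 with the trend removed, and 79 of 92 values were above 0. By bin, the factor medians then ran from 0.08 at 30% to 40% GC to 0.13 at 55% to 70%. Those of all genes were within 0.01 of 0, and the share of all genes above 0 in that fit is not given.

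**Figure D5:**
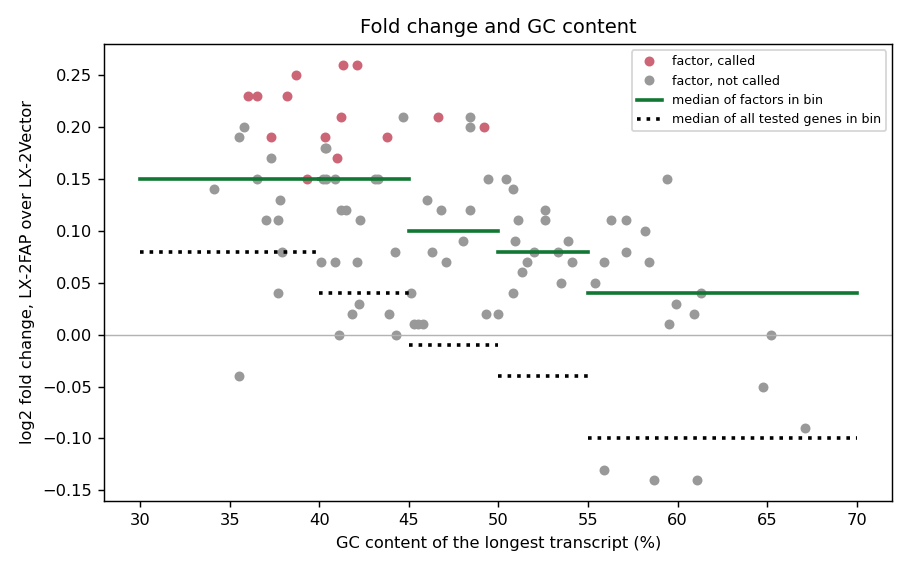
Log2 fold change of each factor (y axis, LX-2FAP over LX-2Vector) against the GC content of its longest transcript in percent (x axis), with called factors in red and the others in gray; solid lines are medians of the factors and dotted lines medians of all tested genes in 5 GC bins. Both sets of medians fall with GC content, and the solid line is above the dotted line in every bin.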

How the data were processed

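RNA-seq of 6 LX-2 libraries was used, grouped by sample title into 3 LX-2Vector and 3 LX-2FAP libraries. The authors aligned paired reads with HISAT2 2.0.5 and deposited raw counts per gene from featureCounts 1.5.0-p3, together with FPKM values computed from gene length and count. The submitters' processing notes also name hg18, DESeq2 1.16.1 and edgeR; the annotation release and the strand setting are not given in the sources used here. Ribosomal RNA was depleted per the labels, and a poly(A) step is also named in the study's methods.

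Counts were tested with edgeR 4.0.16 (quasi-likelihood test, TMM scaling, default expression filter with a minimum count of 10 and a minimum total of 15) without covariates, with Benjamini-Hochberg adjustment across the 18275 genes that passed the filter. All p-values were 2-sided. With 3 against 3 libraries an exact permutation test of one gene cannot go below p = 0.1. SE was derived from the test statistic. GC content, exon overlaps and shared words came from GENCODE 29 (GRCh38), in which all 92 factors were found. Promoters came from RefSeq. Factors were looked up there by Ensembl identifier first and by symbol otherwise, and the tested genes by symbol. Alternatives were DESeq2 1.42.0, limma 3.58.1 on log2(FPKM + 1) and log2(FPKM + 0.1), other scalings and filters, a replicate block, removal of GC or length trends by loess (span 0.5), and leaving out each library.

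The factors, the role lists and the tests were chosen with earlier results of these data known. Named genes were all called factors, the 2 most abundant of each role, the 5 largest changes in each direction, called genes of the wider pathway list, FAP and MYC. Genes named outside this rule were chosen after their values were seen.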

Additional observations from a re-analysis of the deposited data

How the results depend on the processing

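With 3 libraries a group, changes of 10.9% to 19.5% lay near the limit of the test, and the count of called factors depended on the libraries and the test more than the direction did. It was 0 with limma-trend on log2(FPKM + 1) and 0 on log2(FPKM + 0.1), fits for which the share of all genes is not given. It was 5 with the GC trend removed (1.03% of all genes called higher) and 0 to 25 when 1 library was left out, all of them higher. With the wider pathway list included, 33 of 268 tested genes were called, a count over a larger set. The median log2 fold change of the factors was 0.07 with limma-trend on log2(FPKM + 1) and 0.09 to 0.12 when 1 library was left out. At an increase of over 1.2 times with an unadjusted p under 0.05 the count was 1 with DESeq2 size factors, 3 with the DESeq2 Wald test and 0 to 7 when 1 library was left out. Of the other pathway genes, 11 were called with scaling by library size alone, 0 and 0 with limma-trend at the 2 pseudocounts, 5 with the GC trend removed and 0 to 32 when 1 library was left out. Several values near 0 changed sign. PRKDC was at -0.02 with library size alone, with both limma fits and without LX-2FAP library 1, and at -0.01 with the GC trend removed and without LX-2Vector library 1. TSR3 was at 0.06 and NOC4L at 0.08 with the GC trend removed, NOC4L at 0.04 without LX-2Vector library 1, DHX30 at -0.01 without LX-2Vector library 3 and NOP2 at 0.02 without LX-2Vector library 2. MYC was at -0.01 with library size alone, both limma fits and without LX-2FAP library 1. Over all fits that left out 1 library, PRKDC ran from -0.02 to 0.05, NOP2 from -0.24 to 0.02, NOC4L from -0.10 to 0.04, DHX30 from -0.01 to 0.07 and MYC from -0.01 to 0.05. The cause was not tested for any of these. The replicate numbers did not pair the libraries (correlations of the deviations of same-numbered libraries -0.0389, 0.0436 and -0.00962), and with them as a block 16 factors were called, the 14 among them. A filter of 10 counts in every library gave 16 called factors, no filter 18, DESeq2 size factors 17, library size alone 10 and removal of a length trend 14. The share of all tested genes is not given for these fits, for the limma fits, for the block or for the 1.2 times cutoff in them. Those counts are therefore not set against other genes.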
